A study of Mus musculus with 12 samples.

Results

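The subunits of the oxidative phosphorylation machinery were described across 12 RNA-seq libraries of mouse sciatic nerve. Members were taken by gene symbol, as subunits of respiratory chain complexes I, III and IV and of ATP synthase (complex V), and had to reach a mean of at least 1 CPM, the counts of a gene scaled to a common library size, over the 12 libraries. Of 43432 genes in the count table, 88 carried a matching symbol and 85 reached that level. They comprised 72 genes of the nuclear genome (36 of complex I, 8 of complex III, 12 of complex IV and 16 of complex V) and the 13 protein-coding genes of the mitochondrial genome (7, 1, 3 and 2 of the same complexes). Each of the 85 was among the 17257 genes that passed a filter on low counts and were tested. Below the minimum were Cox4i2 at 0.986 CPM, just outside it, and Cox7b2 and Cox8c at 0.0065 and 0.0050 CPM. The lowest members inside it were Cox6a2 at 3.20 CPM and Ndufb2 at 5.87 CPM. The symbol rule leaves out subunits with other names, and among those left out are the acyl carrier protein Ndufab1 and the muscle isoforms Cox7a1 and Cox8b. It takes in Atp5s, a coupling factor named like a subunit. Counts by complex are therefore counts of members and not of all subunits.

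Nerves came from mice of 1 month of age in 3 groups of 4 libraries, each a biological replicate: WT control, *Mtmr2* KO (genotype *Mtmr2* -/-) and niacin-treated *Mtmr2* KO. Each group held 3 males and 1 female, and the sex of a single library was not used. Niacin, a form of vitamin B3 and a precursor of NAD, was given from postnatal day 10 by intraperitoneal injection at 120 mg/kg, and from day 21 to day 30 as a slow-release form by gavage. *Mtmr2* encodes a phosphoinositide phosphatase whose loss causes a demyelinating neuropathy. The untreated groups show what the loss of the gene goes with, and the treated group differs from the *Mtmr2* KO group by niacin alone in the labels. Untreated here means without niacin, and the paper describes the *Mtmr2* KO mice set against the niacin group as given vehicle. No niacin-treated WT nerve was among the samples analysed here. The comparisons share libraries, since each group enters 2 of the 3.

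Complexes I, III and IV pass electrons from NADH to oxygen and pump protons across the inner mitochondrial membrane, and ATP synthase uses that gradient to make ATP. Most subunits are encoded in the nucleus and imported, while the catalytic core of complexes I, III and IV and part of the proton channel of ATP synthase are read from long polycistronic transcripts of mitochondrial DNA. Both axons and Schwann cells of the peripheral nerve hold mitochondria, and the RNA of a whole nerve is a mixture of theirs and of other cells'.

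Total counts per library were between 20763951 and 33191106. All 4 niacin libraries (20983641 to 22935378) were shallower than the WT control libraries (26653828 to 28390961). The tissue was checked against its defining markers, and the 6 myelinating Schwann cell genes summed to between 60390 and 115004 CPM in every library. Skeletal muscle markers were the exception among the libraries. Their 10 genes summed to 3667 and 3670 CPM in niacin replicates 4506 and 4507 and to between 35.5 and 121 CPM in the other 10 libraries. *Mtmr2* itself was at 161, 130, 128 and 137 CPM in WT control replicates 4497 to 4500, at 71.5, 84.6, 143 and 69.4 CPM in *Mtmr2* KO replicates 4501 to 4504, and at 66.7, 68.4, 68.2 and 73.4 CPM in the niacin replicates 4505 to 4508. The library labelled *Mtmr2* KO replicate 4503 was thus within the WT control range, and values are given with and without it. The log2 fold change of *Mtmr2*, ± SE, was -0.59 ± 0.20 (adjusted p = 0.17 by edgeR) in *Mtmr2* KO and -1.01 ± 0.20 (adjusted p = 0.083) in niacin-treated *Mtmr2* KO, both over WT control. Counts over a whole gene do not show which part of it was deleted. The library labelled *Mtmr2* KO replicate 4502 stood apart from the other 3 of its group in its mitochondrial counts, and it too was left out in turn.

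The 13 mt-encoded members carried more counts than the 72 nuclear-encoded members in every library. They took 1.96, 2.25, 1.99 and 2.58% of all counts in the WT control replicates 4497 to 4500, 1.96, 6.21, 1.92 and 2.22% in the *Mtmr2* KO replicates 4501 to 4504, and 3.22, 3.36, 4.52 and 4.98% in the niacin replicates 4505 to 4508. The 4 niacin libraries were above all WT control libraries and above 3 of the 4 *Mtmr2* KO libraries, and the library labelled *Mtmr2* KO replicate 4502 had the highest share of the 12. The WT control mean was 2.19% ± 0.287 (SD, n = 4), the *Mtmr2* KO mean 3.08% ± 2.09 and the niacin mean 4.02% ± 0.866, so that the niacin mean was 1.83 times that of the WT control. The nuclear-encoded members took 0.619% ± 0.0395, 0.639% ± 0.168 and 0.814% ± 0.0813 of the counts in the same order. The mt-encoded sum was 3.53 ± 0.244 times the nuclear-encoded sum for WT control, 4.54 ± 1.84 times for *Mtmr2* KO and 4.90 ± 0.577 times for the niacin-treated group. This ratio was between 3.32 and 3.81 in the WT control libraries and between 4.30 and 5.55 in the niacin libraries, so these groups did not overlap. No test was made of sums over the members.

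Within the mitochondrial sum the division among genes differed little between libraries. mt-Co1, the catalytic subunit of cytochrome c oxidase, took 38.8 to 40.1% of it in all 12 libraries, and mt-Cytb, the only mt-encoded subunit of complex III, took 20.9 to 21.8%. mt-Nd6, a complex I subunit and the only member read from the other strand of the mitochondrial genome, took 1.27 to 1.37% of the sum in WT control libraries, 1.06 to 1.31% in *Mtmr2* KO libraries and 1.12 to 1.19% in niacin libraries. Its share in the niacin libraries was below that in every WT control library, although its own CPM was above.

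The level per length divided the mt-encoded members into a high and a low set, and sequence was compared for this reason. On the scale of CPM per kilobase of exon, 7 of the 13 were between 722 (mt-Nd6) and 7908 (mt-Co1), while mt-Co2, mt-Atp8, mt-Co3, mt-Atp6, mt-Nd3 and mt-Nd4l were at 104, 90.9, 80.7, 63.9, 36.8 and 32.9. These 6 neighbour each other between positions 7013 and 10173 of the mitochondrial genome. For 5 of the low set (mt-Co2, mt-Co3, mt-Atp6, mt-Nd3 and mt-Nd4l), between 97.0 and 99.8% of all windows of 150 bases, the length of 1 read, were found letter for letter in another annotated transcript. Copies of these 5 lie among 7 annotated pseudogenes of the nuclear genome at chr1:24611535-24616197 (GRCm38, GENCODE M21). For the high set the share was 59.2% in mt-Nd4, 23.6% in mt-Co1 and 0 in mt-Nd1, mt-Nd2, mt-Nd5, mt-Nd6 and mt-Cytb. mt-Atp8 was in the low set with a share of 0. It is the shortest member at 204 bases, and its end overlaps mt-Atp6 and its copy for 43 bases. Only annotated transcripts were searched. mt-Atp8 begins between mt-Co2 and mt-Atp6. On chromosome 1 the stretch between their copies, from the end of Gm10925 at 24614651 to the start of Gm28661 at 24614885, was not searched. The share of 0 therefore does not show that mt-Atp8 has no copy.

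The complete mt-Nd4l gene at chrM:9877-10173 (forward strand, GRCm38) is shown because the copy Gm10222 at chr1:24612407-24612700 holds 294 of its 297 bases with no mismatch. Capitals mark the 3 bases that are not in the copy. The first 60 bases of mt-Nd3 at chrM:9459-9518 (forward strand) and of its copy Gm28438 at chr1:24613060-24613119 (reverse strand) show the only mismatch in 345 bases, in capitals.
mt-Nd4l: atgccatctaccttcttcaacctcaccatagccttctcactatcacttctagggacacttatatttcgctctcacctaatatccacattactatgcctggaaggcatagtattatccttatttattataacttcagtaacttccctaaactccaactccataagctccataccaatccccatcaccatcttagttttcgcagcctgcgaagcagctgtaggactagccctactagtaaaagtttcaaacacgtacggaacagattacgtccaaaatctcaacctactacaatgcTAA
mt-Nd3: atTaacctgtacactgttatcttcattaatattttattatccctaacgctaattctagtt
Gm28438: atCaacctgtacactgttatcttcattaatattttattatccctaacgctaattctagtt

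A read inside such a window cannot be placed by its own letters alone. Reads were paired, and the share of windows takes no account of where the other read of a pair lies. The sources used here do not give how a read with more than 1 place was counted. Counts were listed for the copies as well. The 7 pseudogenes summed to 175, 201, 185 and 242 CPM in the WT control replicates 4497 to 4500, to 187, 709, 174 and 213 CPM in *Mtmr2* KO replicates 4501 to 4504, and to 281, 282, 365 and 377 CPM in niacin replicates 4505 to 4508. The order of the libraries was close to that of the mt-encoded sum, with 4502 highest and the niacin libraries above all WT control libraries. The levels of the 5 copied genes are therefore uncertain, and how their reads divided between gene and copy was not tested. The level of mt-Atp8 is uncertain as well, since a copy of it outside annotated transcripts was not searched for.

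**Figure D1:**
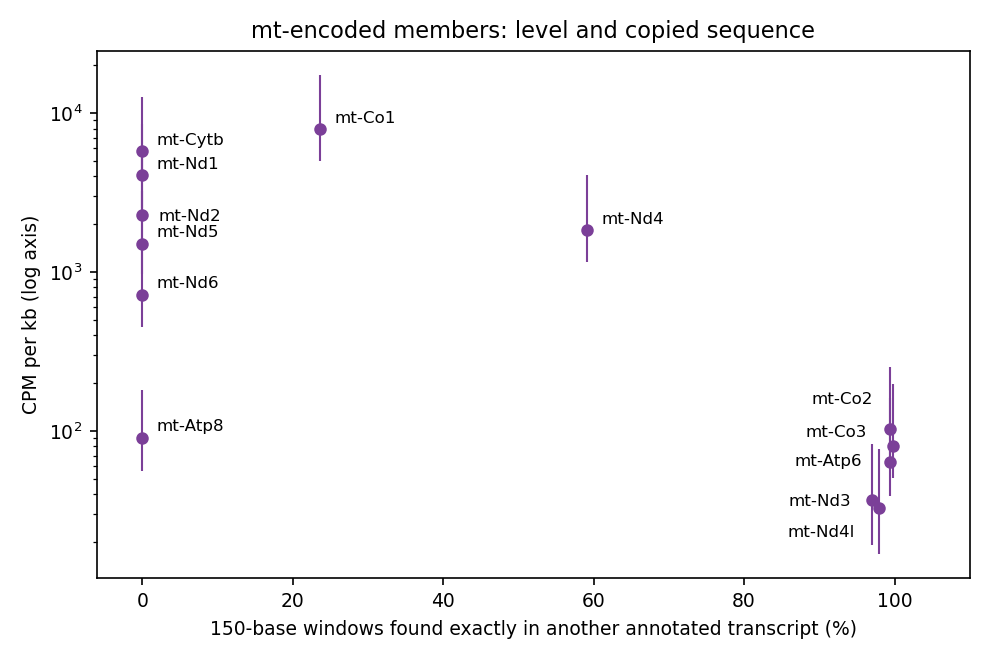
Level of the 13 mt-encoded members in CPM per kilobase (vertical log axis; points are means over 12 libraries, bars run from the lowest to the highest library) against the percent of their 150-base windows found exactly in another annotated transcript. Names of 5 genes stand at the lower right, with 97.0 to 99.8% of windows copied and means of 32.9 to 104, and mt-Atp8 stands at the lower left with a mean of 90.9.

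Among the nuclear-encoded members the highest levels per length were those of complex IV and of the ATP synthase head. Cox6a1, the widely expressed isoform of a complex IV subunit, was at 374 CPM per kilobase, and Cox8a, the smallest widely expressed one, at 274. Atp5b and Atp5a1, the catalytic beta and the alpha subunit of ATP synthase, followed with 190 and 150, on either side of Cox6b1 at 159. The highest of complex I were Ndufb11 at 124 and Ndufa13 at 123, which lay within each other's range over the libraries. The highest of the nuclear-encoded complex III members were Uqcr11 at 105 and Uqcr10 at 100. The lowest nuclear-encoded members were Ndufb2 at 1.04, Atp5s at 4.44, Cox6a2 at 4.60 and Cox6b2 at 5.41. Where the longest transcript was taken as the length in place of all exons, 6 of the 8 members that were among the 2 highest of their complex stayed there. The tissue isoforms were unequal in level. Cox4i1 was at 143 CPM per kilobase against 1.25 for the lung isoform Cox4i2, Cox6b1 at 159 against 5.41 for the testis isoform Cox6b2, and Cox6a1 at 374 against 4.60 for the heart and muscle isoform Cox6a2. Of the 3 genes for the c subunit of the ATP synthase ring, which encode the same mature protein, Atp5g3 was at 65.0, Atp5g2 at 34.2 and Atp5g1 at 11.6.

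The comparison of *Mtmr2* KO with WT control asked how the loss of *Mtmr2* goes with the subunits. No member was called (edgeR quasi-likelihood test, Benjamini-Hochberg adjusted p under 0.05 over all genes), beside 0.267% of all genes tested. At an unadjusted p under 0.05 there were 3 members against 17.2% of all genes, and DESeq2 also called 0 members, beside 3.38% of its genes. There were 74 members with a positive log2 fold change, against 54.0% of all genes. The median log2 fold change was 0.21 for the nuclear-encoded and 0.60 for the mt-encoded members against 0.03 for all genes tested. Both medians changed sign without a single library. Without the library labelled *Mtmr2* KO replicate 4502 they were -0.07 and -0.07, and without the library labelled *Mtmr2* KO replicate 4503 they were 0.38 and 0.78.

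The 4 *Mtmr2* KO libraries were spread widely among themselves. Set against the mean of WT control, the median log2 difference over the nuclear-encoded members was -0.11, 0.87, -0.33 and 0.24 for replicates 4501, 4502, 4503 and 4504, and over the mt-encoded members it was -0.11, 1.68, -0.18 and 0.06. In the WT control libraries the same medians were between -0.09 and 0.15 and between -0.14 and 0.27. Replicate 4502 was the highest of all 12 libraries for 55 of the 72 nuclear-encoded and for all 13 mt-encoded members, and the library labelled replicate 4503 was the lowest of its group for 57 of 72 nuclear-encoded members. The median SD of a nuclear-encoded member on the log2 scale was 0.12 over the WT control, 0.56 over the *Mtmr2* KO and 0.15 over the niacin libraries, beside 0.16, 0.40 and 0.22 for all genes tested. The library labelled replicate 4502 also held the highest sum of the sensory neuron markers, 73.4 CPM against 16.2 to 34.4 CPM in the other 11 libraries. The part of this difference in the member values was not tested. In a mixed tissue, fewer cells of a type and less RNA per cell cannot be told apart.

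**Figure D2:**
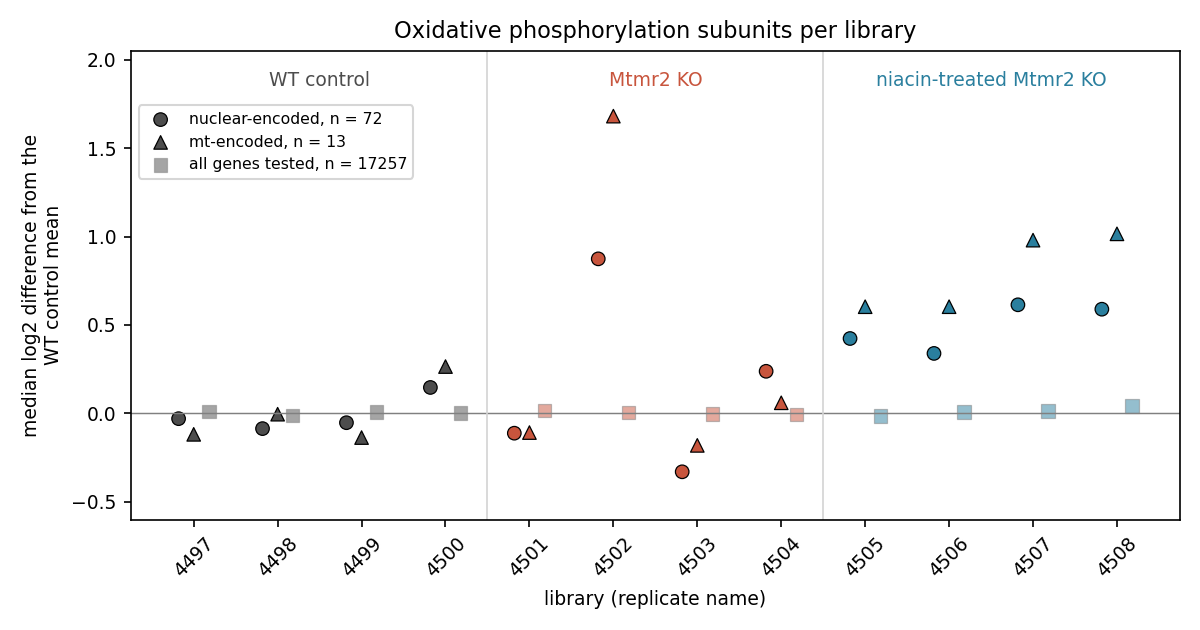
Median over members of the log2 difference from the WT control mean (vertical axis) in each of the 12 libraries, for 72 nuclear-encoded members (circles), 13 mt-encoded members (triangles) and all 17257 genes tested (squares); colours stand for the groups. The niacin libraries are between 0.34 and 0.61 (circles) and between 0.60 and 1.02 (triangles), replicate 4502 is at 0.87 and 1.68, and the squares lie near 0.

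Of the 85 members, 4 lay lower in all *Mtmr2* KO libraries than in any WT control library and 0 lay higher, beside 5.46% and 3.85% of all genes tested, so the count of lower members was near the background. They are given as values. Uqcrfs1, the Rieske iron-sulphur protein of complex III, was at 73.5, 69.4, 65.4 and 68.7 CPM in WT control replicates 4497 to 4500 and at 60.3, 49.9, 63.5 and 59.1 CPM in *Mtmr2* KO replicates 4501 to 4504. The log2 fold change of -0.25 ± 0.11 did not pass the test (adjusted p = 0.26 by edgeR). Uqcrc1, a core protein of complex III, was at 108, 115, 105 and 98 CPM in WT control and at 93.3, 45, 90.7 and 90.6 CPM in *Mtmr2* KO, with a log2 fold change of -0.41 ± 0.20 (adjusted p = 0.31 by edgeR). Atp5a1 and Atp5b had log2 fold changes of -0.27 ± 0.13 and -0.19 ± 0.14. They encode the alpha and the catalytic beta subunit of the ATP synthase head. The members with the smallest p in the other direction were the accessory complex I subunit Ndufa6 (log2 fold change 0.77 ± 0.26, adjusted p = 0.17 by edgeR) and the core complex I subunit Ndufv2 (0.42 ± 0.15, adjusted p = 0.19 by edgeR), and both had an overlap between the groups.

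The comparison of niacin-treated with untreated *Mtmr2* KO asked what niacin goes with in the mutant nerve. The 1 member called was Cox6a2, beside 1.43% of all genes tested, with a log2 fold change of 5.40 ± 1.14 (adjusted p = 0.043 by edgeR). Cox6a2 is the subunit isoform of heart and skeletal muscle. It reached the mean of 1 CPM that makes a member only through the niacin group in which it was high (group means of 0.18 CPM in WT control and 0.22 CPM in *Mtmr2* KO), so its membership and its call rest on the same libraries. It was at 0.174, 0.493, 0.064 and 0.144 CPM in the *Mtmr2* KO replicates 4501 to 4504 and at 0.391, 13, 21.8 and 0.728 CPM in the niacin replicates 4505 to 4508, beside 0.327, 0.180, 0.036 and 0.171 CPM in WT control. The high values were those of 4506 and 4507, the libraries with the skeletal muscle markers, and replicate 4505 overlapped the untreated group. An exact permutation test over the 8 libraries gave p = 0.0571 (two-sided, smallest possible 0.0286). Without replicates 4506 and 4507 the log2 fold change was 1.38 (adjusted p = 0.48 by edgeR) and 0 members were called, beside 0% of all genes. With single libraries left out in turn, the adjusted p of Cox6a2 by edgeR ranged from 0.011 to 0.15, and the call was kept without 4502, 4504, 4505 or 4508 and lost without any of the other 8. DESeq2 called Cox6a2 and Atp5g3, beside 6.01% of its genes.

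The skeletal muscle markers had the same libraries on top. Their sum was at 87.6, 3667, 3670 and 121 CPM in the niacin replicates 4505 to 4508, and 6 of the 10 were called higher in niacin-treated than in untreated *Mtmr2* KO. The most abundant was the fast myosin heavy chain Myh4. Skeletal actin, Acta1, was at 474 and 400 CPM in 4506 and 4507 against 1.56 to 20.5 CPM elsewhere. None of the 10 was at a count of 0 in any library. The isoforms Cox7a1 and Cox8b are also expressed in muscle and brown fat, and neither was highest in 4506 and 4507 together. Cox8b was at 6.21, 14.3, 19.7 and 17.4 CPM in niacin replicates 4505 to 4508 and at 4.52, 6.90, 0.576 and 5.62 CPM in *Mtmr2* KO (log2 fold change 1.72 ± 0.52, adjusted p = 0.10 by edgeR). Cox7a1 was at 12.7, 11.7, 14.6 and 9.94 CPM in niacin replicates 4505 to 4508 and at 7.45, 9.85, 3.26 and 7.78 CPM in *Mtmr2* KO (0.79 ± 0.26, adjusted p = 0.12 by edgeR). The brown adipocyte list, which holds both, summed to 43.6 to 55.3 CPM in the niacin libraries and to 13.5 to 31.1 CPM in the *Mtmr2* KO libraries. In the WT control libraries it summed to 30.9 to 46.4 CPM, which overlapped both of these groups. Ucp1 and Elovl3 were at a count of 0 in at least 1 library. The part of brown adipocytes in these values was not tested.

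**Figure D3:**
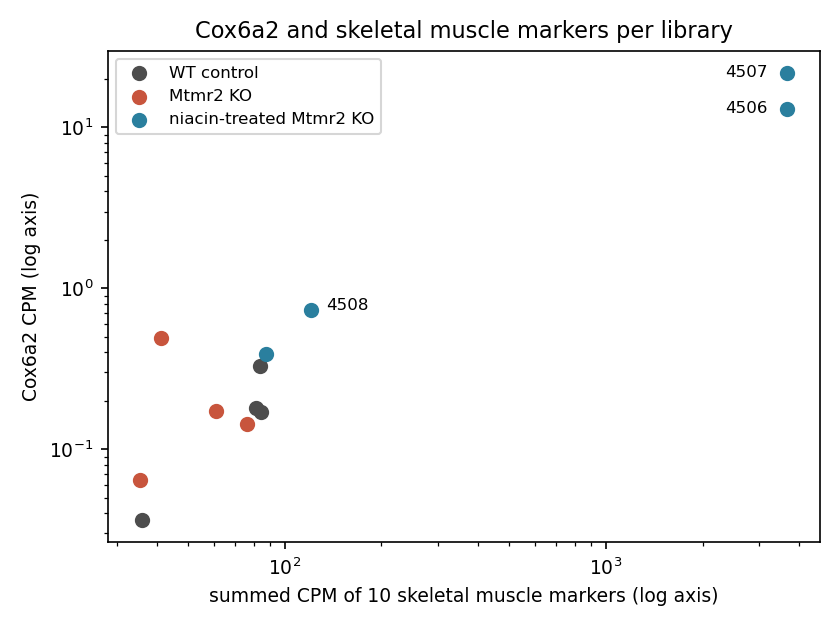
Cox6a2 in CPM (vertical log axis) against the summed CPM of 10 skeletal muscle markers (horizontal log axis) in the 12 libraries, coloured by group. Niacin replicates 4506 and 4507 stand at 13 and 21.8 CPM of Cox6a2 and at 3667 and 3670 CPM of markers, and the other 10 libraries lie at 0.728 CPM or below and at 121 CPM or below.

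For the other members the niacin and *Mtmr2* KO libraries overlapped with 3 exceptions, which lay higher in all niacin libraries, and none lay lower, beside 3.60% and 3.40% of all genes tested. The count of higher members was thus near the background, and the 3 are given as values. Atp5g3, a c subunit gene, was at 119, 150, 101 and 131 CPM in *Mtmr2* KO and at 152, 158, 168 and 172 CPM in niacin replicates (log2 fold change 0.38 ± 0.13, adjusted p = 0.13 by edgeR). Uqcrfs1, lower in *Mtmr2* KO libraries than in WT control, was at 71.1, 69.4, 76.8 and 64.3 CPM in the niacin replicates 4505 to 4508 (0.27 ± 0.11 over *Mtmr2* KO, adjusted p = 0.18 by edgeR), and it overlapped WT control. The *Mtmr2* KO libraries are the same in both of these comparisons. The remaining one was the core complex I subunit Ndufs3 (0.25 ± 0.09, adjusted p = 0.17 by edgeR). Atp5g1, another c subunit gene, had 0.54 ± 0.18 (adjusted p = 0.13 by edgeR) with an overlap between the groups. At an unadjusted p under 0.05 there were 9 members, against 20.1% of all genes. The median log2 fold change was 0.23 for the nuclear-encoded and 0.22 for the mt-encoded members against -0.04 for all genes, and 80 of 85 members had a positive value against 45.9% of all genes tested. The library labelled *Mtmr2* KO replicate 4502 had the most weight in this comparison. Without it, 60 members were called, all higher in niacin-treated nerves (47 nuclear-encoded and all 13 mt-encoded), beside 9.85% of all genes called higher and 13.7% called lower, and the medians were 0.53 and 0.85. Without the library labelled 4503 in its place, 0 members were called and the medians were 0.11 and 0.05. Without both, 32 were called, all higher, beside 4.59% of all genes called higher and 7.92% called lower, and the medians were 0.40 and 0.86. With all 12 libraries and weights for library quality, limma-voom called 33 members higher, beside 4.68% of all genes called higher and 6.95% called lower, though not Cox6a2 (adjusted p = 0.27).

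The comparison of niacin-treated *Mtmr2* KO with WT control joins genotype and treatment, whose parts cannot be told apart here. No member was called by edgeR over the 12 libraries, beside 0% of all genes tested, and the smallest adjusted p of a member was 0.083. DESeq2 called Cox6a2 and Ndufv2, beside 8.28% of its genes. At an unadjusted p under 0.05 there were 52 of 85 members, beside 24.7% of all genes tested. Where the spread was estimated from these 2 groups alone, 73 of the 84 members tested were called higher and 2 lower, beside 16.3% and 17.6% of all genes, and Cox6a2 did not pass the filter on low counts. The fit over 12 libraries shares its estimate of the spread with the *Mtmr2* KO libraries. Without 4502 in that fit 62 members were called higher and 1 lower, beside 8.90% and 12.7% of all genes. Without 4502 and the library labelled 4503 there were 73 and 2, beside 13.8% and 15.8%. With all 12 and weights for library quality, limma-voom called 76 higher and 2 lower, beside 20.8% and 21.5% of all genes. Without 4506 and 4507, 0 members were called, beside 0% of all genes. The nuclear-encoded and mt-encoded medians were 0.49 and 0.78 without 4502 and 0.56 and 0.93 by limma-voom. In these 2 fits the counts of calls moved far more than the values. A term for GC content and length, given below, did move the values, to medians of 0.23 and 0.16.

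By their values, 74 of the 85 members lay higher in all 4 niacin libraries than in any WT control library, and 2 lay lower, beside 14.9% and 16.6% of all genes tested. The 74 were all 13 mt-encoded members, 31 of 36 of complex I, 6 of 8 of complex III, 12 of 12 of complex IV and 12 of 16 of complex V among the nuclear-encoded. Cox6a2, a member through its niacin values alone, is among the 12 of complex IV. The median log2 fold change was 0.50 for nuclear-encoded and 0.80 for mt-encoded members against 0.02 for all genes. By complex the nuclear-encoded medians were close, at 0.50 in I, 0.56 in III, 0.57 in IV and 0.48 in V, and the quartiles of the 71 nuclear-encoded members other than Cox6a2 were 0.36 and 0.61. The count of members with a positive value was 81 of 85, against 51.5% of all genes. These medians were 0.51 and 0.76 without replicates 4506 and 4507, the libraries with muscle markers. They were between 0.47 and 0.57 and between 0.72 and 0.90 with each of the 12 libraries left out in turn.

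mt-Co1 was at 7905, 8421, 7774 and 9715 CPM in WT control replicates 4497 to 4500, at 7883, 26990, 8190 and 8585 CPM in *Mtmr2* KO replicates 4501 to 4504, and at 12969, 13177, 17245 and 17754 CPM in niacin replicates 4505 to 4508. Every niacin library was above every WT control library, and 4502 was above all. Its log2 fold change over WT control was 0.85 ± 0.37 (adjusted p = 0.18 by edgeR), or 0.86 in the fit of these 2 groups alone (adjusted p = 0.0045 by edgeR). Among the mt-encoded members the values were between 0.65 (mt-Nd6) and 1.05 (mt-Nd4l, whose sequence is held by a nuclear copy). Some members had no window in another annotated transcript. Of these, mt-Nd1 had 0.88 ± 0.35, mt-Nd2 0.87 ± 0.37, mt-Nd5 0.86 ± 0.34 and mt-Cytb 0.82 ± 0.35. The others of these, mt-Nd6 and mt-Atp8, had 0.65 ± 0.35 and 0.75 ± 0.32. Both had negative values (-0.20 and -0.18) with a term for GC content and length.

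Uqcrh, the hinge protein of complex III, had the highest nuclear-encoded value after Cox6a2. It was at 61.7, 59.3, 62.7 and 75.9 CPM in WT control and at 100, 94.7, 117 and 121 CPM in the niacin replicates 4505 to 4508 (log2 fold change 0.74 ± 0.31, adjusted p = 0.17 over 12 libraries and 0.0023 over the 2 groups by edgeR). Ndufv2 had 0.49 ± 0.15 (adjusted p = 0.11 and 0.0044 by edgeR). Ndufb7, an accessory subunit of complex I, was at 33.2, 35.6, 36.0 and 44.8 CPM in WT control and at 57.8, 49.2, 59.1 and 57.2 CPM in niacin replicates (0.58 ± 0.19, adjusted p = 0.12 and 0.0036 by edgeR). The widely expressed complex IV isoforms Cox4i1, Cox6a1, Cox6b1, Cox7a2, Cox7b and Cox8a had values of 0.39, 0.37, 0.62, 0.54, 0.67 and 0.36, and none of them overlapped between the groups. Ndufa4, which carries a complex I name and is known to sit with complex IV, was at 0.54 ± 0.23, while its paralogue Ndufa4l2, not a member, was at -0.84 ± 0.31 (adjusted p = 0.15 over 12 libraries and 0.0086 over the 2 groups by edgeR).

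A few members did not share this direction. Uqcrc1 was at 73.2, 94.0, 78.5 and 64.4 CPM in niacin replicates 4505 to 4508, below every WT control library (log2 fold change -0.45 ± 0.20, adjusted p = 0.19 over 12 libraries and 0.010 over the 2 groups by edgeR). Atp5d, the delta subunit of ATP synthase, was at 108, 97.7, 108 and 114 CPM in WT control and at 89.3, 96.7, 90.1 and 70.5 CPM in niacin replicates 4505 to 4508 (-0.30 ± 0.15, adjusted p = 0.22 and 0.041 by edgeR). Both were opposite in sign to the medians of their complexes. Among the 9 members that overlapped were Atp5a1 (-0.04), Atp5b (0.07), Atp5g1 (0.38), Ndufa8 (0.23), Ndufb2 (0.19), Ndufb8 (0.01), Ndufs3 (0.15) and Uqcrfs1 (0.02). Of these, Ndufs3 belongs to the conserved core of complex I, and Ndufa8, Ndufb2 and Ndufb8 are accessory subunits.

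**Figure D4:**
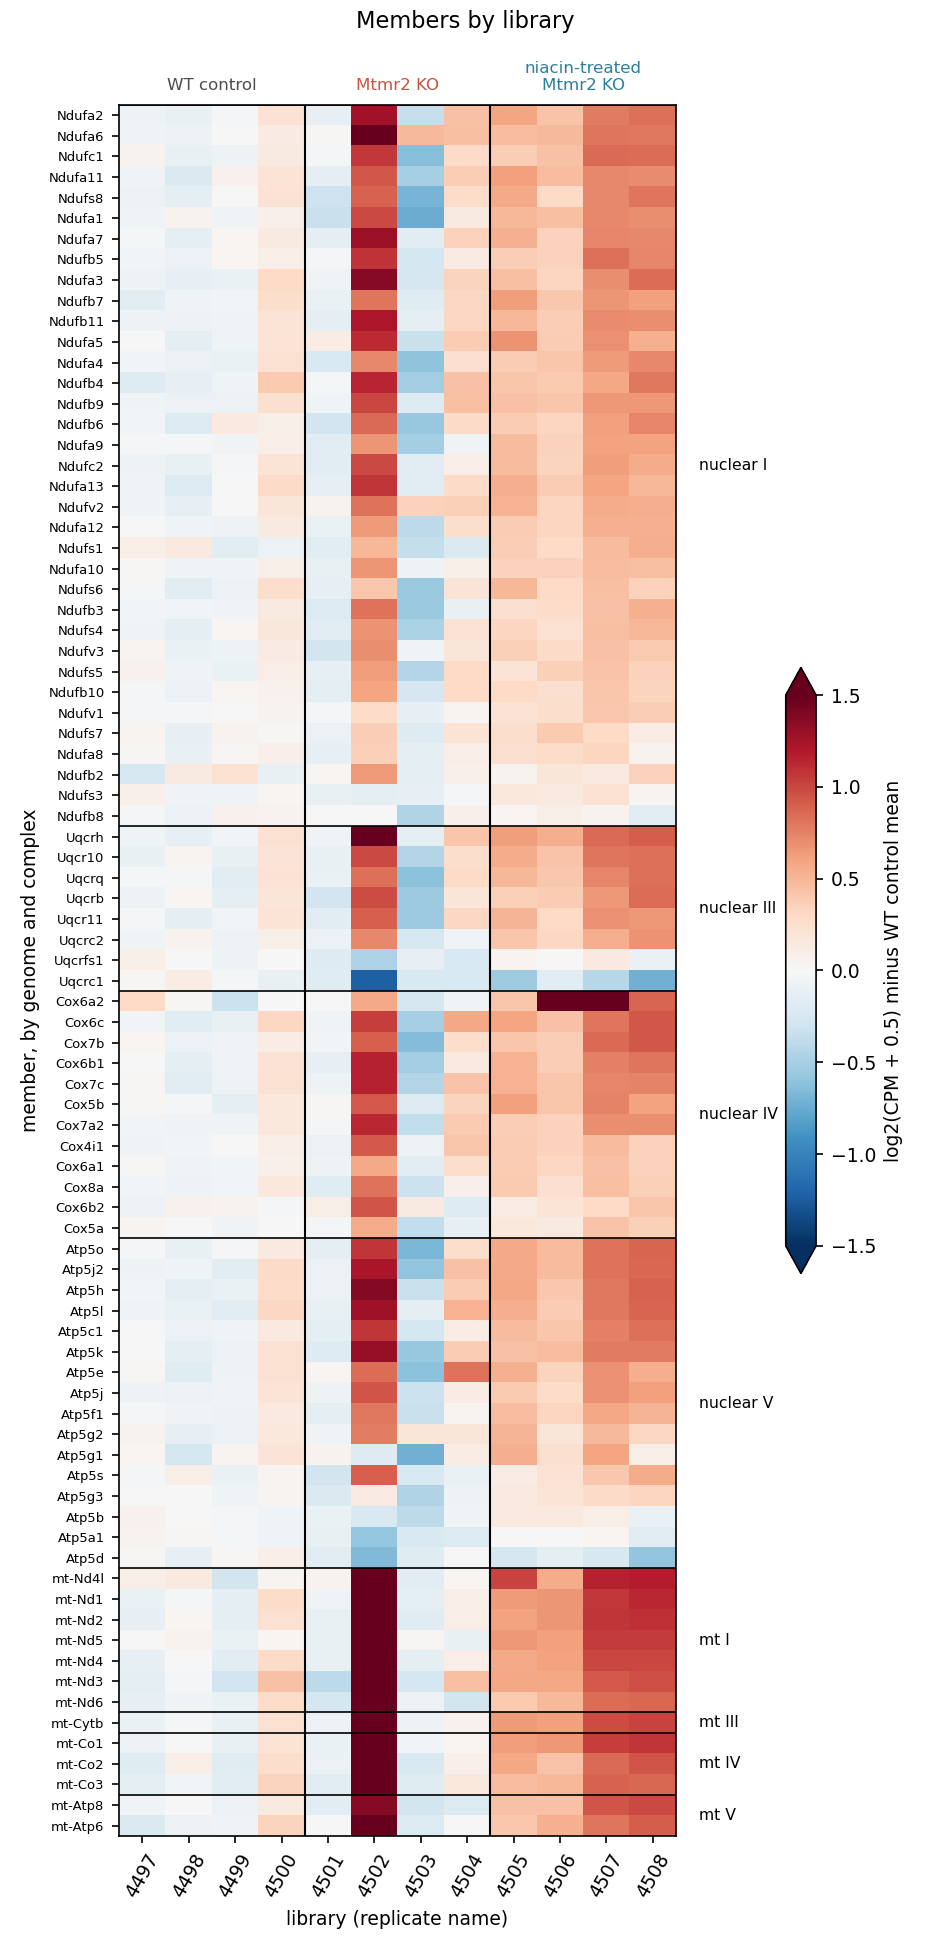
log2(CPM + 0.5) of 84 of the 85 members minus its WT control mean (colour, cut at -1.5 and 1.5) in the 12 libraries, with members grouped by genome and complex and sorted by their value in niacin-treated *Mtmr2* KO over WT control. Replicate 4502 is the darkest column, the library labelled 4503 is mostly blue, and Uqcrc1 and Atp5d are blue in all 4 niacin columns.

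The members share a property that the rule did not use, namely short transcripts. Their median longest transcript was 992 bases for the nuclear-encoded and 784 bases for the mt-encoded, against 3127 bases for all genes tested, and the median GC content was 50.2% and 37.1% against 49.6%. Among the nuclear-encoded members the 61 that lay higher in niacin-treated *Mtmr2* KO than in WT control had a median transcript of 918 bases, and the 9 that overlapped one of 1916 bases. Across 71 nuclear-encoded members without Cox6a2, the log2 fold change had a Pearson r of -0.26 with log2 length and of -0.22 with GC content, as a description of genes measured in the same libraries. With a term for GC content and length for each library, the medians were 0.23 for nuclear-encoded and 0.16 for mt-encoded members, in place of 0.50 and 0.80, against 0.01 for all genes, and 64 of 85 members had a positive value, where 81 had one without the term. For niacin-treated over untreated *Mtmr2* KO the medians were 0.18 and 0.12, and for *Mtmr2* KO over WT control 0.02 and 0.02. In *Mtmr2* KO over WT control 47 of 85 members had a positive value with the term, where 74 had one without it. Of the 13 mt-encoded members, 7 had a positive value in that comparison and 7 in niacin-treated *Mtmr2* KO over WT control. A shift of short genes and a shift of these members cannot be told apart in these libraries.

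**Figure D5:**
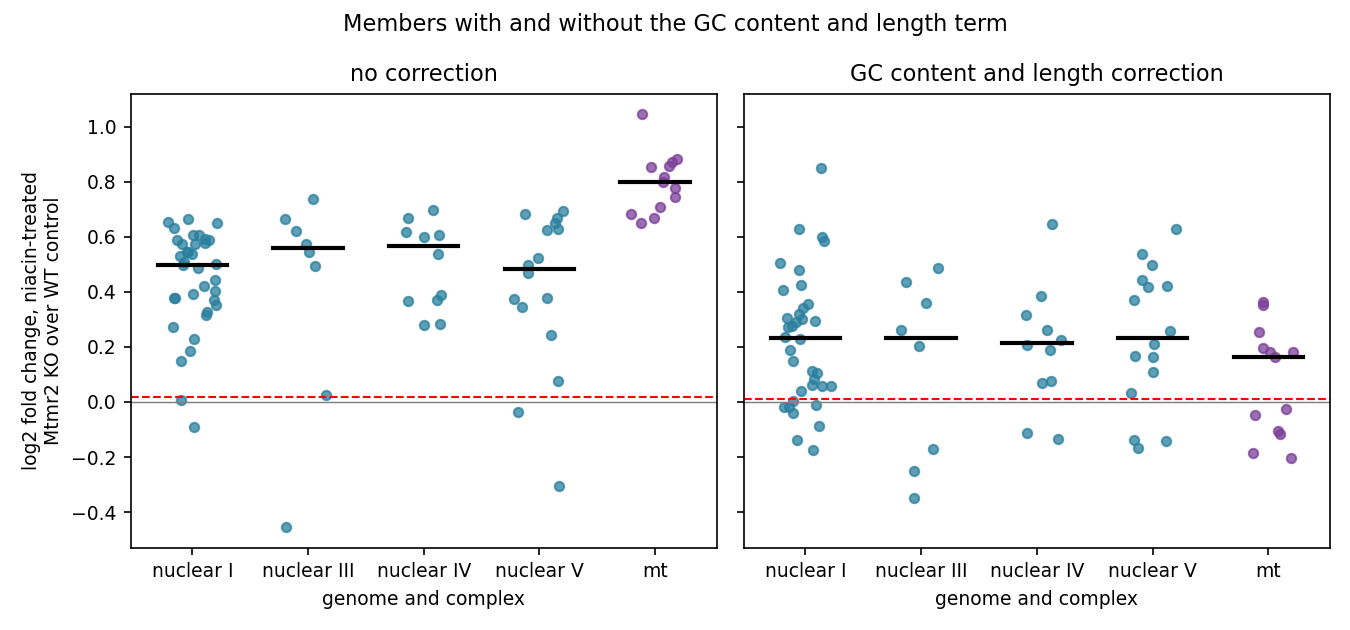
Log2 fold change of the members in niacin-treated *Mtmr2* KO over WT control, without (left) and with (right) a term for GC content and length in each library; points are members by genome and complex with Cox6a2 (5.62 and 5.30) not shown, black bars are medians, and the dashed red line is the median of all genes tested. The nuclear-encoded medians go from 0.48 to 0.57 on the left to 0.22 to 0.23 on the right, and the mt-encoded median from 0.80 to 0.16.

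Promoter sequence was compared because the nuclear-encoded members are known to share regulators. RefSeq windows of 300 bases (GRCm38.p6, from 250 bases before to 50 after the start) were matched for 61 of the 72 nuclear-encoded members. They were searched on both strands for 4 motifs, GCGCATG (the centre of the site of NRF1), CCGGAAG (ETS factors with GABP), GATGGCG (YY1) and AAGGTCA (ERR). NRF1 and GABP are nuclear regulators of respiratory genes. The first was found in 12 of 61 windows (19.7%) against 4.41% of the windows of all 27025 genes, the next in 14 (23.0% against 9.93%), the next in 9 (14.8% against 4.04%) and the last in 7 (11.5% against 5.38%). At least 1 of the 4 was in 32 windows (52.5%) against 21.1% of all. The 27025 genes were not limited to those expressed in this nerve, so the shares do not set the members against other expressed genes. A match is a description of letters and does not show binding. The windows of Cox6a1, the highest nuclear-encoded member per length (chr5:115348909-115349208, reverse strand), of Atp5l, a membrane subunit of ATP synthase with a log2 fold change of 0.65 (chr9:44920693-44920992, reverse strand), and of Uqcrc1, which went the other way (chr9:108936398-108936697, forward strand), are given with the motif letters in capitals.
Cox6a1: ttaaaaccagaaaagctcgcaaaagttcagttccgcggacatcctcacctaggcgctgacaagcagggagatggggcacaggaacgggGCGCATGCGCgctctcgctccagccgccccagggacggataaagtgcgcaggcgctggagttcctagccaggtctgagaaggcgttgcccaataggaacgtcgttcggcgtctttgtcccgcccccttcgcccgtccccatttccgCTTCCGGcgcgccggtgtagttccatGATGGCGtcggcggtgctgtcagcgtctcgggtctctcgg
Atp5l: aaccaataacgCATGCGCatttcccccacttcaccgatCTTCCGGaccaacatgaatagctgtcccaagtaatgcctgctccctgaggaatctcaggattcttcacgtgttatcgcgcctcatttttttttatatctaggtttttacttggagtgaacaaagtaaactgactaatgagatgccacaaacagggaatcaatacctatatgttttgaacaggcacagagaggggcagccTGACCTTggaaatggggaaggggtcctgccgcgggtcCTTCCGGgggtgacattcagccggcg
Uqcrc1: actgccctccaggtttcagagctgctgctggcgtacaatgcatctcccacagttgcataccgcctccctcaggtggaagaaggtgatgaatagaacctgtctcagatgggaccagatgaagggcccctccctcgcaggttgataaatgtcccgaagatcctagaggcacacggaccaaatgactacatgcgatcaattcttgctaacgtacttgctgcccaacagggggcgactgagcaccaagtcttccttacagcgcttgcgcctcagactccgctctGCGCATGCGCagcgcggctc

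The regulators themselves showed no call in the fit over 12 libraries. Ppargc1a, a coactivator of mitochondrial biogenesis, was at 11.5, 14, 13.7 and 11.2 CPM in WT control, at 10.8, 11.4, 8.39 and 11.8 CPM in *Mtmr2* KO and at 19.2, 12.9, 16.6 and 12.2 CPM in niacin-treated *Mtmr2* KO. The niacin libraries were above every *Mtmr2* KO library (log2 fold change 0.53 ± 0.17, adjusted p = 0.12 by edgeR) and overlapped WT control (0.27 ± 0.17). Nrf1, which encodes NRF1, had -0.03 ± 0.11 over WT control, and Tfam, the packaging and transcription factor of mitochondrial DNA, had 0.06 ± 0.11. Of 17 genes of mitochondrial transcription and biogenesis, 0 were called in any of the 3 comparisons by that fit. It called 0.267% of all genes for *Mtmr2* KO over WT control and 1.43% for niacin-treated over untreated *Mtmr2* KO. For niacin-treated *Mtmr2* KO over WT control it called 0% of all genes, so the 0 there was fixed. In the fit of these 2 groups alone, 0 of the 17 were called higher and 3 lower, beside 16.3% and 17.6% of all genes. By values, 0 lay higher and 4 lower in all niacin libraries, beside 14.9% and 16.6%. Their median log2 fold change in this comparison was -0.03.

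Complex II, the only respiratory complex with no mt-encoded subunit, was split. In niacin-treated *Mtmr2* KO over WT control its iron-sulphur subunit Sdhb had a log2 fold change of 0.47 ± 0.20 and its anchor Sdhd 0.51 ± 0.17, and both lay above WT control in all niacin libraries. The flavoprotein Sdha had 0.01 ± 0.11. The other anchor, Sdhc, had -0.38 ± 0.17 and lay below WT control in all niacin libraries. None of these 4 was called (smallest adjusted p = 0.12 by edgeR), and no gene of the further mitochondrial lists was called in any of the 3 comparisons by the same test. That test called 0.267% of all genes for *Mtmr2* KO over WT control and 1.43% for niacin-treated over untreated *Mtmr2* KO. It called 0% of all genes for niacin-treated *Mtmr2* KO over WT control. In the same comparison the median log2 fold change was 0.30 over 76 mitochondrial ribosomal proteins, of which 33 lay higher in all niacin libraries and 2 lower. It was 0.22 over 12 genes of the TCA cycle (6 and 1), 0.40 over 8 electron carriers and ATP exporters (6 and 0), 0.34 over 14 assembly factors of complex I (8 and 0), 0.19 over 6 of complex III (1 and 0), 0.23 over 18 of complex IV (7 and 3) and -0.11 over 3 of complex V (0 and 0). These counts stand beside the 14.9% and 16.6% of all genes. In the fit of these 2 groups alone, 43 of 76 mitochondrial ribosomal proteins were called higher and 1 lower. The calls were 5 and 2 of 12 TCA cycle genes, 7 and 0 of 8 carriers and exporters and 2 and 1 of 4 complex II genes. Among assembly factors they were 9 and 0 of 14, 1 and 0 of 6, 6 and 0 of 17 and 0 and 0 of 3, in the same order. All genes had 16.3% and 17.6%.

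Sums of cell type markers are given for the niacin and WT control groups. The sums of 4 macrophage markers were 257 to 289 CPM in WT control and 302 to 471 CPM in niacin replicates, and those of 5 sensory neuron markers 16.2 to 19.1 and 26.5 to 34.4 CPM, without overlap in either list. The sums of 5 non-myelinating Schwann cell markers were 405 to 502 CPM in WT control and 499 to 702 CPM in niacin replicates. Most of that sum was Scn7a, while 4 of the 5 genes had a negative log2 fold change and the median was -0.42. The sums of 7 white adipocyte markers were 2583 to 3402 and 2164 to 4412 CPM, those of 4 vascular smooth muscle markers 531 to 1205 and 566 to 1013 CPM, and those of 4 red blood cell markers 273 to 1015 and 225 to 992 CPM, and these 3 lists overlapped between the groups. White adipocyte markers differed in *Mtmr2* KO, with 2 of 7 called lower than in WT control and 1 called higher in niacin-treated than in untreated *Mtmr2* KO. The *Mtmr2* KO sums of that list were 1901, 4558, 1669 and 754 CPM. The part of these cell types in the member values was not tested.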

How the data were processed

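RNA-seq (polyA-selected RNA, Illumina HiSeq, paired reads of 150 bases) was made from 12 sciatic nerves. Per the labels, the authors demultiplexed with CASAVA 1.9, aligned to GRCm38 (mm10) with STAR and compared groups with DESeq2; the sources used here do not give the counter, the annotation release, the strand setting or the handling of reads with several places. The deposited values are raw counts per gene. The authors' tables of comparisons hold fold changes and p-values, of which none was used; only their gene symbol column was.

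Counts were scaled with TMM and fitted in 1 model over all 12 libraries without covariates (edgeR 4.0.16 quasi-likelihood test, filterByExpr, two-sided, Benjamini-Hochberg over 17257 genes, called at adjusted p under 0.05; R 4.3.3). DESeq2 1.42.0 and limma 3.58.1 served as alternatives. CPM are TMM-scaled and a log2 value in a library uses a prior count of 2. Coordinates, lengths and GC content come from GENCODE M21, found for 42548 genes. Exact permutation tests enumerate 70 divisions. Fits were tested on simulated data. Members and lists were chosen with earlier results of these data known. Members named were *Mtmr2*, the mt-encoded ones, called ones, the 3 of smallest p per direction and comparison, the 2 highest and the lowest per length in each complex, tissue isoforms, the succinate dehydrogenase genes, Ppargc1a, Tfam and Nrf1; the members whose groups do not overlap or overlap against the rest, Ndufb11 and Ndufa13, Atp5l, and the pseudogenes were named after their values were seen. Each library was left out in turn. Results on 2 genes are not reported here.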

Additional observations from a re-analysis of the deposited data

Results flagged for a closer look

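For 50 named genes and 2 shares of counts in 3 groups (156 groups of 4 libraries), 1 library lay far from the other 3 of its group in 22 cases, where chance gives about 1 in 20. The library labelled *Mtmr2* KO replicate 4502 gave most of them. The mt-encoded genes are read from shared transcripts and their share is their sum, so these cases are not independent. The count of cases is therefore no test against chance. It held the highest mt-encoded share, 6.21% of counts, and the highest mt-Co1 (26990 CPM), mt-Cytb (14513), mt-Nd1 (8171), mt-Nd5 (5877), mt-Nd4 (5643), mt-Nd2 (5410), mt-Nd6 (822), mt-Co2 (172), mt-Co3 (155), mt-Atp6 (110), mt-Atp8 (36.8) and mt-Nd4l (22.8 CPM) of its group. Sdhd at 92.6 CPM and Atp5s at 15.3 CPM were also high there, and Uqcrc1 at 45 CPM was low. WT control replicate 4500 was high in its group for Cox7a2 (66.2 CPM), Cox8a (166 CPM), Ndufa4 (89.2 CPM) and mt-Nd6 (343 CPM), and WT control replicate 4499 was low for Cox4i2 (0.653 CPM). Niacin replicate 4506 was low for Ndufv2 (117 CPM). No explanation of these was tested.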

How the results depend on the processing

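No paired analysis was possible because the groups share no replicate numbers. In *Mtmr2* KO over WT control 0 members were called in all 22 alternatives. In niacin-treated over untreated *Mtmr2* KO the count of members called (1) was 2 by DESeq2 and 33 by limma-voom with quality weights. It was 0 to 60 with a library left out, 32 without 4502 and the library labelled 4503, and 0 without 4506 and 4507. With at least 10 counts in every library or only 2 groups fitted it was 0. Both of these fits tested 84 members and left out Cox6a2, the 1 member called, so its call could not be kept there. With only 2 groups fitted, 0 of 16411 genes were called. In niacin-treated *Mtmr2* KO over WT control the count (0) was 2 by DESeq2, 78 by limma-voom, 75 with only 2 groups fitted, 1 with at least 1 count in total, 0 to 63 with a library left out, and 75 without 4502 and the library labelled 4503. In the last comparison the nuclear-encoded and mt-encoded medians moved to 0.23 and 0.16 with GC content and length, and the mt-encoded share relative to WT control from 1.83 to 1.39 times with nuclear-encoded counts as the denominator.

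With GC content and length, 7 of the 13 mt-encoded members kept a positive value in *Mtmr2* KO over WT control. The count was also 7 in niacin-treated *Mtmr2* KO over WT control, and all 13 were positive in both without the term. Counted only where a value was called or above its standard error in both fits, sign changes of named members were few. In *Mtmr2* KO over WT control, mt-Atp8 was at -0.62 with GC content and length, at -0.19 without 4502 and 4503 and between -0.23 and 0.54 with a library left out; mt-Nd6 at -0.31, -0.28 and between -0.22 and 0.62; and mt-Nd3 at -0.30 with GC content and length. In niacin-treated *Mtmr2* KO over WT control, GC content and length gave mt-Nd6 -0.20, mt-Atp8 -0.18, Atp5g3 -0.14 and Atp5s -0.14. The cause was not tested. DESeq2 moved the median of all genes by about 0.1, to 0.13 in *Mtmr2* KO over WT control and -0.12 in niacin-treated over untreated *Mtmr2* KO, beside 0.19 and 0.24 for the nuclear-encoded members. The GC content and length term and the fits without 2 libraries were chosen after seeing the data.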
